A study of Mus musculus with 4 samples.

Results

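The genes described here are 58 members of the cell cycle and DNA replication machinery, chosen by name as D cyclins and their kinases, replication genes and mitotic genes, and read from the counts of bulk RNA-seq libraries that list 55421 genes each. The study compared cultures of mouse prefrontal cortex (PFC) with and without FGF2 (fibroblast growth factor 2), asking whether the effects of FGF2 seen in human cortical cultures also appear in mouse. PFC tissue of newborn (P0) wild type C57BL/6 mice was freed of meninges and vessels, dissociated and kept for 10 days in the same medium, either with FGF2 at 5 ng/mL (2 libraries) or without added FGF2 (2 libraries). The cultures are mixtures of neurons, glia and progenitors that were not sorted, and the number of animals behind each library is not given in the sources used here. The methods state that samples outside 2 human stages had technical replicates, so 2 libraries of 1 group may come from 1 culture, and the p-values measure the spread between these libraries, which may be technical.

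Cells enter the cycle when D cyclins, which respond to growth factors, activate CDK4 and CDK6. These kinases phosphorylate the retinoblastoma protein and so release E2F factors, which switch on cyclin E, the MCM helicase, polymerases and enzymes of deoxynucleotide synthesis for S phase. Later in the cycle, cyclin A, cyclin B and CDK1 drive mitosis, with genes that are held off in resting cells by the DREAM complex and raised by B-MYB and FOXM1. FGF2 is known as a mitogen of cortical progenitors and of glial precursors. Neurons have left the cycle for good, and the replication and mitotic genes are known to be expressed mainly in cells that still divide.

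The FGF2 libraries held 9166432 and 9907613 counts on genes, and those without FGF2 held 10460236 and 10799886. Levels are given in CPM, counts scaled to a common library size after TMM normalization, and are not corrected for gene length unless stated. A gene is said to have risen or fallen where edgeR's quasi-likelihood test, fitted on all 17144 genes that passed the expression filter, gave a Benjamini-Hochberg adjusted p below 0.05. All 58 members passed that filter, with between 19 and 5714 counts in a library. With FGF2, 4 members rose and 32 fell, and 22 did not pass the test. DESeq2, the tool of the study, called 3 members higher and 17 lower, and it also called fewer of all genes, 2313 higher and 2143 lower against 3541 and 3408 with edgeR. The edgeR calls are 6.90% and 55.2% of the members, while 20.7% of all genes tested rose and 19.9% fell. Both FGF2 libraries were below both others for 42 members and above for 5 members, whereas these shares were 33.4% and 33.6% over all genes tested. The median log2 fold change was -0.45 over the members and -0.0008 over all genes tested.

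The 4 genes that rose were Ccnd3 and Cdk4 in the first class and Mcm7 and Pola1 among the replication genes, and no mitotic member rose. Pooled over classes, the fold changes shifted to lower values from the D cyclin class to the replication and then the mitotic members. The medians were -0.16 for the 5 D cyclin genes and kinases, -0.33 for the 26 replication members and -0.60 for the 27 mitotic members. Single classes did not all follow this order. The median was -0.50 for deoxynucleotide supply, a replication class, and -0.24 for Mki67, Top2a and Hmgb2, which are counted as mitotic. In these bulk libraries, fewer dividing cells and less RNA of these genes per dividing cell cannot be told apart.

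**Figure D1:**
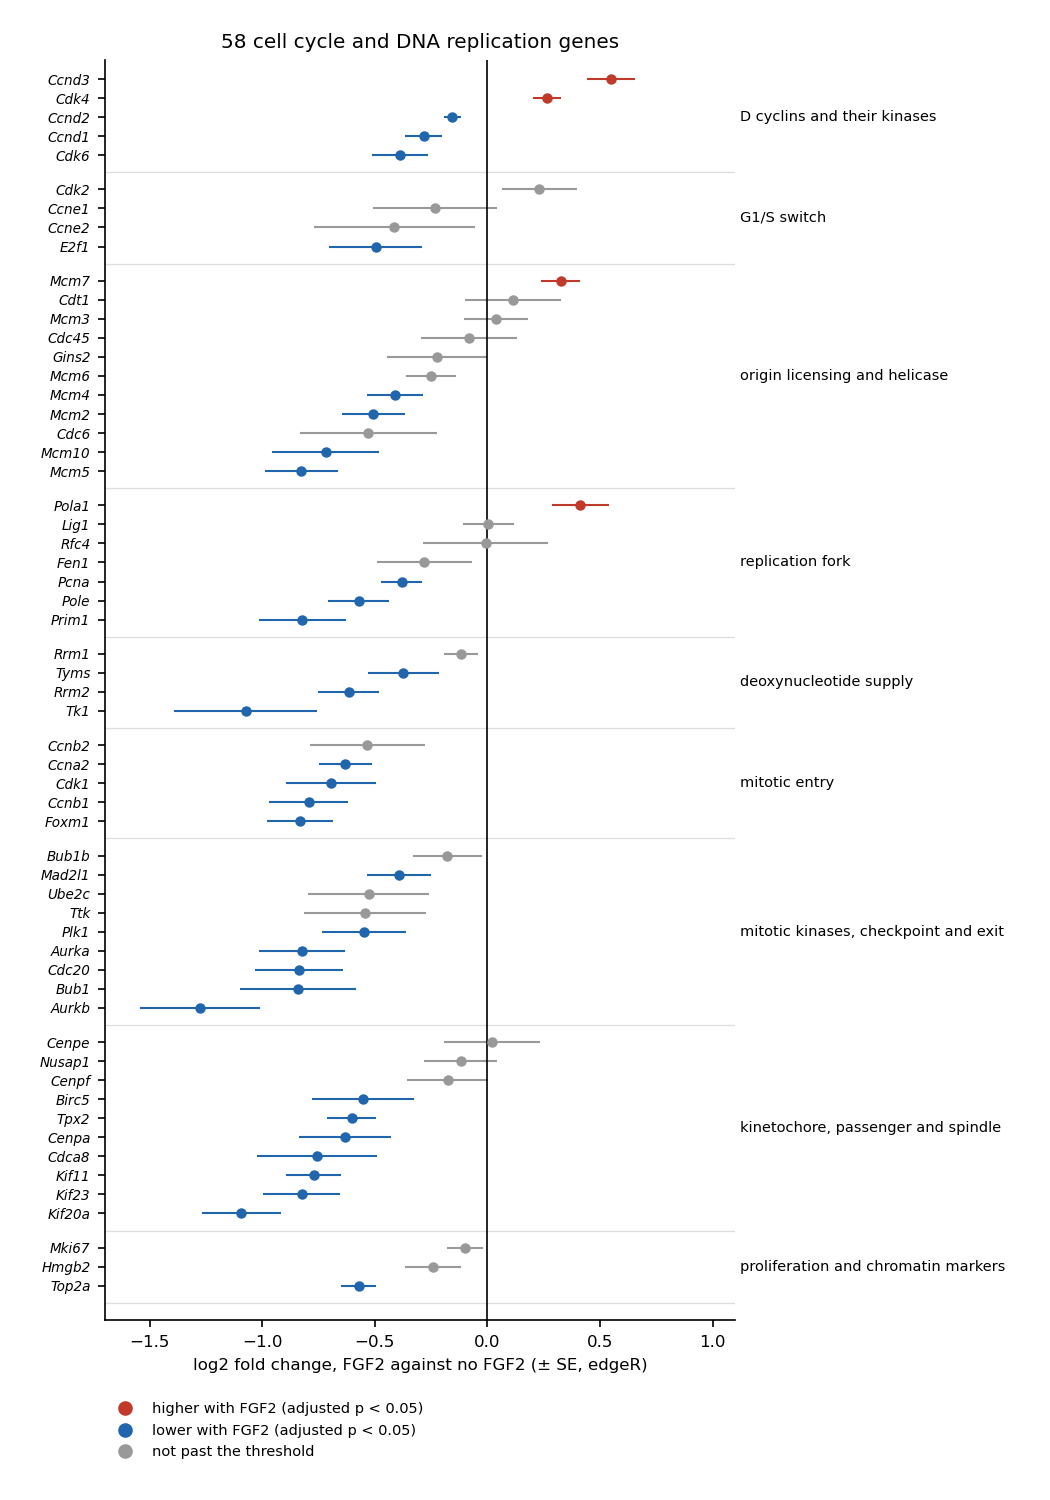
Log2 fold change of each of the 58 members, FGF2 against no FGF2, on the x axis with the SE of the edgeR fit as bars (2 libraries a group), grouped by class on the y axis. Red, blue and grey points are genes that rose (4), fell (32) or did not pass the test (22), and the blue points crowd the mitotic classes.

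Promoter sequences are shown for 8 members because the replication and mitotic classes are known for different promoter elements, and the genes were chosen to include members that fell, rose or did not pass the test. E2F factors bind sites of the kind searched here as TTTCCCGC, TTTCGCGC, TTTGCCGC or TTTGGCGC. Many mitotic promoters hold a cell cycle homology region, or CHR, searched as TTTGAA or TTCGAA and bound by the DREAM and B-MYB complexes, and a CCAAT box, searched as CCAAT and bound by NF-Y. Each line gives the 160 bases before the RefSeq start in build GRCm38.p6 (mm10), 5′ to 3′ on the strand of the gene, with every match on either strand in capitals. Where capitals run on past 8 bases, E2F matches overlap each other. By the GENCODE annotation, used here for gene coordinates, the last 26 bases of the Cdk1 line and the last 9 of the Cdc20 line lie in exons. These stretches hold the last CHR match of Cdk1 and the last CCAAT match of Cdc20.
The first group holds E2F matches, from Mcm5 (chr8:75109349-75109508, plus strand), which fell, Mcm6 (chr1:128359706-128359865, minus strand), which did not pass the test, and Pola1 (chrX:93632156-93632315, minus strand), which rose.
Mcm5: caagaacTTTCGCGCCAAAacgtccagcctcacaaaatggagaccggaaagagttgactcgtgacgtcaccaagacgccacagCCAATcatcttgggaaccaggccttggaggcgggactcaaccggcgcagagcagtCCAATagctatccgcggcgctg
Mcm6: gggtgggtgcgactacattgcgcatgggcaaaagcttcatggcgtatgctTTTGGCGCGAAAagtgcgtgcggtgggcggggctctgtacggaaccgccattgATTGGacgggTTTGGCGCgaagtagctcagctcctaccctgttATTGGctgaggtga
Pola1: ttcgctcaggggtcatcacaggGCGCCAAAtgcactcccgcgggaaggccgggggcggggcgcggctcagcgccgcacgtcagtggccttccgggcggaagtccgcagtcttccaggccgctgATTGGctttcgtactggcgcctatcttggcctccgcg
The second group holds CHR and CCAAT matches, from Cdk1 (chr10:69352913-69353072, minus strand), Cdc20 (chr4:118437344-118437503, minus strand), Kif11 (chr19:37376222-37376381, plus strand) and Top2a (chr11:99024190-99024349, minus strand), which all fell, and Mki67 (chr7:135716380-135716539, minus strand), which did not pass the test.
Cdk1: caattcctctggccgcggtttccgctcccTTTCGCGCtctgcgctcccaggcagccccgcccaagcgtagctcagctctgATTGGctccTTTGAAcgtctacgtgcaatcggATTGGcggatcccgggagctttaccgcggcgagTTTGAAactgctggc
Cdc20: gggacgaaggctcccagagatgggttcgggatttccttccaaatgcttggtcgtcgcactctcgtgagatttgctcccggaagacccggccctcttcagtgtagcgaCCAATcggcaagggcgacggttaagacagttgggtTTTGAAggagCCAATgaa
Kif11: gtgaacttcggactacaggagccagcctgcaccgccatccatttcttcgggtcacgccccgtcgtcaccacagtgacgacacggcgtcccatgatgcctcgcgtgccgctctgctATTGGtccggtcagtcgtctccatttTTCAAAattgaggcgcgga
Top2a: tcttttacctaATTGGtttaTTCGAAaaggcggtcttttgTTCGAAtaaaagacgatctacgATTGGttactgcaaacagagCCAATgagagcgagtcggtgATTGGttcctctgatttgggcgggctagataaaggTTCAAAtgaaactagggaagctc
Mki67: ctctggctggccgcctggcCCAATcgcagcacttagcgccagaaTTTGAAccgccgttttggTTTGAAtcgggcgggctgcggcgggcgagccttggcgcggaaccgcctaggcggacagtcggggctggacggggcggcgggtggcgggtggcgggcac

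Promoters of 300 bases, from 250 before to 50 after the start, were matched by symbol for 47 members, 4 of them with several promoters. An E2F match was held by 9 of 26 promoters of replication members (34.6%) and by 1 of 22 promoters of mitotic members, that of Cdk1, against 2.26% of all 32851 promoters and 3.72% of those of genes tested. A CHR match together with a CCAAT box was held by 17 of 22 promoters of mitotic members (77.3%) and by 3 of 26 promoters of replication members (11.5%), against 7.52% of all promoters and 5.53% of those of genes tested. Among the mitotic members the pair of matches was held by 10 of 13 promoters of genes that fell and by 7 of 9 promoters of genes that did not pass the test. Among the replication members, an E2F match was held by 1 of 9 promoters of genes that fell, that of Mcm5, and by 8 of 17 promoters of genes that did not fall, which include Mcm7 and Pola1. These are letter matches and not measured binding, and the comparison of fallen and other genes is a description.

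The 5 genes of the D cyclin class split, with Ccnd3 and Cdk4 rising and Ccnd1, Ccnd2 and Cdk6 falling. D cyclins are the regulatory subunits of CDK4 and CDK6, and each can pair with either kinase. Ccnd3 (chr17:47505051-47599691) stood at 44.7 and 38.9 CPM with FGF2 and at 28.5 and 28.6 CPM without FGF2, a log2 fold change of 0.55 ± 0.11 (SE, adjusted p = 1.37e-06). Cdk4 (chr10:127063534-127067920) stood at 128.5 CPM in both FGF2 libraries and at 110.2 and 103.6 CPM in the others, a log2 fold change of 0.27 ± 0.06 (SE, adjusted p = 8.77e-05). For both genes, each FGF2 library lay above each library without FGF2.

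Ccnd1, the D cyclin most often tied to growth factor signalling, stood at 55.6 and 51.2 CPM with FGF2 and at 66.7 and 63.3 CPM without FGF2, a log2 fold change of -0.28 ± 0.08 (SE, adjusted p = 0.0024). Ccnd2, the most abundant of the 58 members and a cyclin of cortical progenitors, stood at 472.2 and 474.5 CPM with FGF2 and at 528.0 and 527.8 CPM without FGF2. Its fall was small, with a log2 fold change of -0.16 ± 0.04 (SE, adjusted p = 0.00014), but exceeded the spread of the libraries. Cdk6, the kinase that pairs with D cyclins beside CDK4, stood at 22.6 and 20.2 CPM with FGF2 and at 28.6 and 27.4 CPM without FGF2, a log2 fold change of -0.39 ± 0.12 (SE, adjusted p = 0.0057). The calls of Ccnd1 and Cdk6 were lost with DESeq2 (adjusted p = 0.054 and 0.0877), without FGF2 replicate 2 (adjusted p = 0.057 and 0.0821) and without no FGF2 replicate 1 (adjusted p = 0.0653 and 0.0649).

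**Figure D2:**
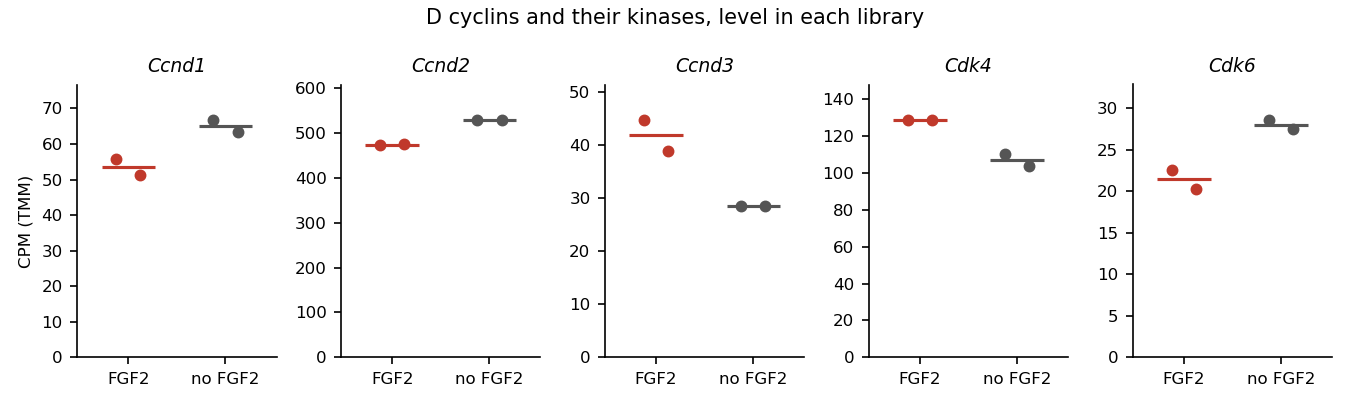
Level in CPM (y axis, starting at 0) of the 3 D cyclins and their 2 kinases in each library, with points for libraries and lines for group means. The FGF2 points of Ccnd3 and Cdk4 lie above those without FGF2, and those of Ccnd1, Ccnd2 and Cdk6 lie below.

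Per kilobase of exon (RPKM), the mean level of Ccnd2 was 50.3 with FGF2 and 56.1 without FGF2, that of Ccnd1 was 11.4 and 13.8, and that of Ccnd3 was 4.77 and 3.25. Ccnd2 thus made up 75.7% ± 1.35 (SD, n = 2) of the summed RPKM of the 3 D cyclins with FGF2 and 76.7% ± 0.52 (SD, n = 2) without FGF2, a difference within the spread of the libraries. The share of Ccnd3 was 7.60% and 6.75% with FGF2 and 4.41% and 4.48% without FGF2, so that the groups did not overlap. Cdk4 stood at 39.6 RPKM with FGF2 and 32.9 RPKM without FGF2, and Cdk6 at 1.53 and 2.00 RPKM. By RPKM, the order of the 3 cyclins and of the 2 kinases was the same in both groups. The length used joins all annotated exons of a gene, 8775 bases for Ccnd3 and 4709 for Ccnd1. Shares and levels compared between genes depend on that length.

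Of the 4 genes of the switch from G1 to S phase, only E2f1 fell and the others did not pass the test. Cdk2, the partner kinase of cyclin E, stood at 14.7 and 13.1 CPM with FGF2 and at 12.6 and 11.1 CPM without FGF2, with a log2 fold change of 0.23 ± 0.17 (SE, adjusted p = 0.28). Cyclin E genes were low, with 2.09 to 5.90 CPM over Ccne1 and Ccne2 in all libraries, and the groups overlapped for both. E2f1, which encodes an activator of S phase genes, stood at 7.16 and 7.12 CPM with FGF2 and at 9.33 and 10.8 CPM without FGF2, a log2 fold change of -0.50 ± 0.21 (SE, adjusted p = 0.042). This call was lost with DESeq2 (adjusted p = 0.225), with no filter on low counts (adjusted p = 0.067) and without any one of the libraries (adjusted p = 0.0913 and 0.111 without FGF2 replicates 1 and 2, and 0.0669 and 0.301 without no FGF2 replicates 1 and 2).

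The 6 genes of the MCM helicase, whose products form one ring that is loaded on origins and unwinds DNA, did not move together. Mcm7 rose, Mcm2, Mcm4 and Mcm5 fell, and Mcm3 and Mcm6 did not pass the test. Mcm7 (chr5:138164583-138172422) stood at 57.8 and 57.2 CPM with FGF2 and at 48.1 and 43.8 CPM without FGF2, a log2 fold change of 0.32 ± 0.09 (SE, adjusted p = 0.00091). Mcm5 (chr8:75109569-75128439) stood at 10.8 and 9.46 CPM with FGF2 and at 16.5 and 19.4 CPM without FGF2, a log2 fold change of -0.83 ± 0.16 (SE, adjusted p = 2.45e-06). In neither gene did the groups overlap.

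Mcm2 stood at 12.7 and 17.8 CPM with FGF2 and at 21.7 and 21.8 CPM without FGF2, a log2 fold change of -0.51 ± 0.14 (SE, adjusted p = 0.0013). Mcm4 stood at 21.8 and 20.5 CPM with FGF2 and at 30.7 and 25.6 CPM without FGF2, a log2 fold change of -0.41 ± 0.12 (SE, adjusted p = 0.0032). Each call was lost without 1 library, at -0.29 (adjusted p = 0.146) for Mcm2 without FGF2 replicate 1 and at -0.28 (adjusted p = 0.193) for Mcm4 without no FGF2 replicate 1, and DESeq2 gave adjusted p = 0.0604 and 0.0757. The call of Mcm7 was lost without no FGF2 replicate 2, with a log2 fold change of 0.25 (adjusted p = 0.0735).

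Mcm6 stood at 27.6 and 27.4 CPM with FGF2 and at 31.6 and 33.7 CPM without FGF2, with a log2 fold change of -0.25 ± 0.11 (SE, adjusted p = 0.063). It passed the test with upper quartile scaling (adjusted p = 0.0372) and with total count scaling (adjusted p = 0.0443). Mcm3 stood at 21.8 and 15.6 CPM with FGF2 and at 17.9 and 18.4 CPM without FGF2, and the groups overlapped. Of the RPKM summed over the 6 genes, Mcm7 made up 36.9% and 38.5% with FGF2 and 28.4% and 26.6% without FGF2. The share of Mcm5 was 7.65% and 7.05% with FGF2 and 10.8% and 13.1% without FGF2. Mcm7 had the highest RPKM of the 6 genes in all 4 libraries. A processed copy of Mcm7 with 97.7% identity over 2157 aligned bases lies elsewhere in the genome, and it held at most 2 counts in a library.

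**Figure D3:**
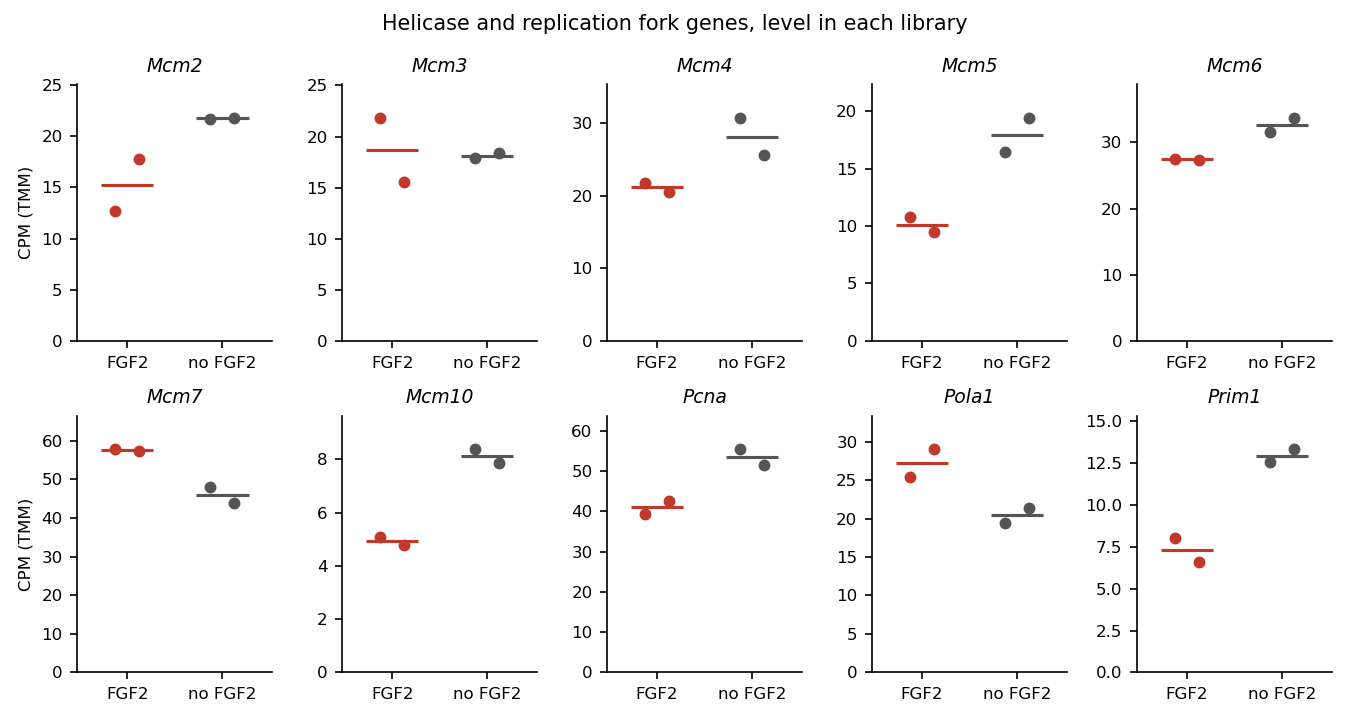
Level in CPM (y axis, starting at 0) of 7 MCM genes, Pcna, Pola1 and Prim1 in each library, with points for libraries and lines for group means. The FGF2 points of Mcm7 and Pola1 lie above those without FGF2, those of Mcm3 overlap, and those of the other 7 genes lie below.

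Among the other genes that prepare and start origins, Mcm10, which helps to activate the loaded helicase, fell from 8.38 and 7.85 CPM without FGF2 to 5.07 and 4.78 CPM with FGF2, a log2 fold change of -0.72 ± 0.24 (SE, adjusted p = 0.0081). That call was lost with DESeq2 (adjusted p = 0.1) and without no FGF2 replicate 1 (adjusted p = 0.0828). Cdc6, which loads the helicase, had a log2 fold change of -0.53 ± 0.31 (SE, adjusted p = 0.16), with both FGF2 libraries below the others. Cdt1, its partner in loading, and Cdc45 and Gins2, which complete the active helicase, lay between 6.06 and 9.37 CPM in all libraries with groups that overlapped. The exons of Gins2 are overlapped over 67.3% of their length by Gse1 on the opposite strand.

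At the replication fork, the catalytic subunit of DNA polymerase alpha and the small primase subunit, which work in one complex, moved in opposite directions. Pola1 (chrX:93304767-93632155) stood at 25.4 and 29.0 CPM with FGF2 and at 19.4 and 21.4 CPM without FGF2, a log2 fold change of 0.41 ± 0.13 (SE, adjusted p = 0.0036). Prim1 (chr10:128015168-128030037) stood at 8.05 and 6.61 CPM with FGF2 and at 12.6 and 13.3 CPM without FGF2, a log2 fold change of -0.82 ± 0.19 (SE, adjusted p = 9.38e-05). The groups did not overlap for either gene, but the call of Pola1 was lost with DESeq2 (adjusted p = 0.0758), without FGF2 replicate 2 (adjusted p = 0.103) and without no FGF2 replicate 1 (adjusted p = 0.0903).

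Pcna, the sliding clamp of the polymerases, stood at 39.5 and 42.5 CPM with FGF2 and at 55.4 and 51.5 CPM without FGF2, a log2 fold change of -0.38 ± 0.09 (SE, adjusted p = 0.00016). Pole, the catalytic subunit of the leading strand polymerase epsilon, fell with a log2 fold change of -0.57 ± 0.14 (SE, adjusted p = 0.00011). The genes for Okazaki fragment processing did not pass the test, with log2 fold changes of -0.28 ± 0.21 (SE) for the flap nuclease gene Fen1 and 0.004 ± 0.11 (SE) for the ligase gene Lig1. The clamp loader gene Rfc4 was at -0.01 ± 0.28 (SE) on 40 to 62 counts a library, with groups that overlapped. The exons of Fen1 are overlapped over 84.2% of their length by Gm10143 on the opposite strand.

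In the supply of deoxynucleotides, 3 of 4 genes fell (75%, against 19.9% of all genes tested). Tk1, the thymidine kinase of the salvage path, stood at 2.65 and 2.34 CPM with FGF2 and at 5.81 and 4.71 CPM without FGF2, a log2 fold change of -1.07 ± 0.32 (SE, adjusted p = 0.0026) on 23 to 61 counts a library. Rrm2, the regulated subunit of ribonucleotide reductase, fell with a log2 fold change of -0.62 ± 0.14 (SE, adjusted p = 2.88e-05). Rrm1, the large subunit of the same enzyme, stood at 62.0 and 73.2 CPM with FGF2 and at 72.5 and 74.5 CPM without FGF2, with groups that overlapped and a log2 fold change of -0.12 ± 0.08 (SE, adjusted p = 0.23). Without FGF2 replicate 2 the fold change of Rrm1 was -0.25 and passed the test (adjusted p = 0.0253).

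Tyms, which makes thymidylate, fell with a log2 fold change of -0.37 ± 0.16 (SE, adjusted p = 0.046). The call of Tyms was lost with DESeq2 (adjusted p = 0.257), with limma-voom (adjusted p = 0.0552), with no filter on low counts (adjusted p = 0.0769), and without FGF2 replicate 1 (adjusted p = 0.0677), FGF2 replicate 2 (adjusted p = 0.165) or no FGF2 replicate 2 (adjusted p = 0.5). The call of Tk1 was lost with DESeq2 (adjusted p = 0.0549) and without no FGF2 replicate 1 (adjusted p = 0.0763). Over the 4 replication classes, 2 genes rose (7.69%), 11 fell (42.3%) and 13 did not pass the test. Over all genes tested, 20.7% rose and 19.9% fell.

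In mitosis the direction was uniform among the genes that changed. Of 27 members, 18 fell (66.7%, against 19.9% of all genes tested) and none rose, and 26 log2 fold changes were negative. Of the 5 genes of mitotic entry, 4 fell and Ccnb2 did not pass the test. Ccnb1, the cyclin that activates CDK1 at the onset of mitosis, stood at 8.60 and 8.85 CPM with FGF2 and at 14.8 and 15.5 CPM without FGF2, a log2 fold change of -0.79 ± 0.18 (SE, adjusted p = 3.62e-05). Cdk1, the kinase itself, stood at 6.06 and 8.24 CPM with FGF2 and at 11.8 and 11.5 CPM without FGF2, a log2 fold change of -0.69 ± 0.20 (SE, adjusted p = 0.0019). Its call was lost with DESeq2 (adjusted p = 0.0548) and without FGF2 replicate 1 (adjusted p = 0.0672).

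Foxm1, a transcription factor of mitotic genes, stood at 12.7 and 11.8 CPM with FGF2 and at 20.1 and 23.5 CPM without FGF2, a log2 fold change of -0.83 ± 0.15 (SE, adjusted p = 1.55e-07). Ccna2, the cyclin of S phase and G2, fell with a log2 fold change of -0.63 ± 0.12 (SE, adjusted p = 5.48e-07). Ccnb2, a cyclin close to Ccnb1 in role, stood at 3.86 and 5.29 CPM with FGF2 and at 6.66 and 6.65 CPM without FGF2, with a log2 fold change of -0.53 ± 0.26 (SE, adjusted p = 0.082). Both FGF2 libraries lay below both others in all 5 genes of mitotic entry, against 33.4% of all genes tested. Without FGF2 replicate 2, the log2 fold change of Ccnb2 was -0.79.

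Among the 9 genes of mitotic kinases, checkpoint and exit, 6 fell (66.7%, against 19.9% of all genes tested). Both FGF2 libraries were below both others for all 9, against 33.4% of all genes tested. Aurkb (chr11:69045647-69051664), the kinase of the chromosomal passenger complex, had the lowest log2 fold change of all members, at -1.28 ± 0.27 (SE, adjusted p = 9.76e-06). It stood at 2.87 and 3.56 CPM with FGF2 and at 7.61 and 8.04 CPM without FGF2, which makes its mean 2.44 times higher without FGF2. Aurka, the centrosome kinase, fell by 0.83 ± 0.19 (SE, adjusted p = 8.18e-05) on the log2 scale, and Cdc20, the activator of the anaphase promoting complex, fell by 0.84 ± 0.19 (SE, adjusted p = 8.87e-05). Bub1b, a checkpoint gene, stood at 14.3 and 14.6 CPM with FGF2 and at 14.9 and 17.9 CPM without FGF2, with a log2 fold change of -0.18 ± 0.15 (SE, adjusted p = 0.38).

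Plk1, the polo-like kinase, the checkpoint kinase gene Bub1 and the checkpoint gene Mad2l1 fell too, with log2 fold changes of -0.55, -0.84 and -0.39. All 3 calls were lost with DESeq2 (adjusted p = 0.118, 0.0819 and 0.151). Without FGF2 replicate 2, Plk1 and Bub1 had adjusted p = 0.0921 and 0.0824. Without FGF2 replicate 1 Mad2l1 had adjusted p = 0.0883, without no FGF2 replicate 1 Bub1 had 0.156 and Mad2l1 had 0.0696, and without no FGF2 replicate 2 Plk1 had 0.133 and Mad2l1 had 0.11. The checkpoint kinase gene Ttk and the ubiquitin-conjugating enzyme gene Ube2c, at 3.42 to 7.11 CPM, had log2 fold changes of -0.54 and -0.53 that did not pass the test, and Ttk passed it without FGF2 replicate 2 (adjusted p = 0.0478).

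Of the 10 genes of the kinetochore, passenger complex and spindle, 7 fell (70%, against 19.9% of all genes tested). Kif20a, a kinesin of the cleavage furrow, stood at 8.38 and 7.52 CPM with FGF2 and at 15.7 and 18.2 CPM without FGF2, a log2 fold change of -1.09 ± 0.18 (SE, adjusted p = 3.83e-09). Kif11 (chr19:37376403-37421859), the motor that pushes the spindle poles apart, stood at 19.0 and 18.8 CPM with FGF2 and at 32.4 and 32.1 CPM without FGF2, a log2 fold change of -0.77 ± 0.12 (SE, adjusted p = 3.02e-09). Kif23, a motor of cytokinesis, fell by 0.83 ± 0.17 (SE, adjusted p = 9.75e-06) on the log2 scale, and Tpx2, which activates Aurora A on the spindle, fell by 0.60 ± 0.11 (SE, adjusted p = 2.70e-07). In all 4 genes, both FGF2 libraries lay below both others.

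The centromere histone gene Cenpa and the passenger genes Birc5 and Cdca8 fell with log2 fold changes of -0.63, -0.55 and -0.76, and all 3 calls were lost with DESeq2 (adjusted p = 0.0997, 0.231 and 0.13). Without FGF2 replicate 1 Birc5 and Cdca8 had adjusted p = 0.0724 and 0.113, and without FGF2 replicate 2 Cenpa and Birc5 had 0.139 and 0.126. Without no FGF2 replicate 1 Birc5 had a log2 fold change of -0.29 (adjusted p = 0.522) and Cdca8 had adjusted p = 0.0646, and without no FGF2 replicate 2 Cenpa and Cdca8 had 0.0601 and 0.0997. Birc5 was also lost with limma-voom (adjusted p = 0.0562) and with no filter on low counts (adjusted p = 0.0591). Cenpe, a kinetochore motor, stood at 7.94 and 8.13 CPM with FGF2 and at 7.71 and 8.13 CPM without FGF2, with groups that overlapped and the only positive log2 fold change of a mitotic member, 0.02 ± 0.21 (SE). Cenpf, a large kinetochore protein, and Nusap1, a spindle protein, had log2 fold changes of -0.18 and -0.12 that did not pass the test.

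**Figure D4:**
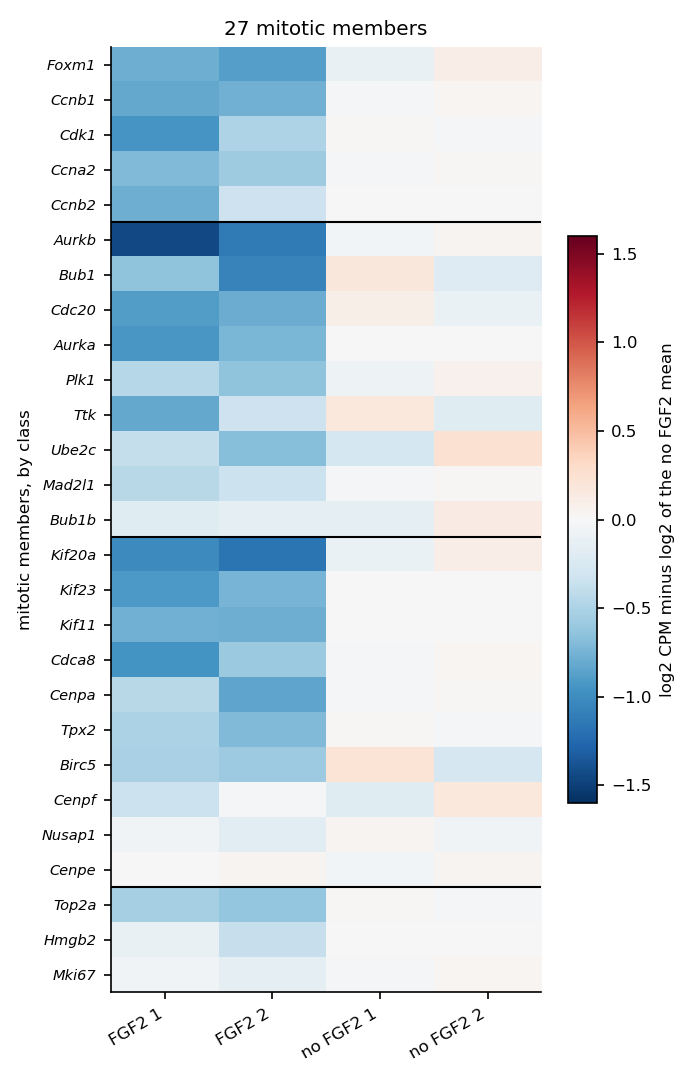
Level of each of the 27 mitotic members in each library, as log2 CPM minus log2 of the mean of the libraries without FGF2 (colour, blue for lower). Columns are libraries, rows are genes ordered by fold change in 4 classes, and the FGF2 columns are blue for nearly all rows, darkest for Aurkb and palest for Cenpe, Nusap1 and Mki67.

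The 2 most used markers of proliferating cells differed. Top2a (chr11:98992943-99024189), the topoisomerase that untangles sister chromatids, stood at 59.4 and 56.0 CPM with FGF2 and at 86.5 and 85.0 CPM without FGF2, a log2 fold change of -0.57 ± 0.08 (SE, adjusted p = 1.39e-12). Mki67 (chr7:135689784-135716361), which encodes the Ki-67 antigen that coats mitotic chromosomes, stood at 65.6 and 61.2 CPM with FGF2 and at 66.6 and 69.2 CPM without FGF2, with a log2 fold change of -0.10 ± 0.08 (SE, adjusted p = 0.33). Mki67 had 595 to 749 counts a library, and its SE was close to that of Top2a, but its difference did not exceed the spread of the libraries by the test. Hmgb2, a chromatin protein of dividing cells, was lower in both FGF2 libraries, with a log2 fold change of -0.24 ± 0.12 (SE, adjusted p = 0.1), and passed the test without FGF2 replicate 1, at -0.38 (adjusted p = 0.0294).

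The summed CPM of the 27 mitotic members was 381.2 and 373.0 with FGF2 and 531.9 and 541.0 without FGF2. For the 26 replication members it was 438.0 and 444.4 with FGF2 and 507.5 and 503.3 without FGF2, and for the 5 D cyclin genes and kinases it was 723.7 and 713.5 with FGF2 and 762.0 and 750.8 without FGF2. Each sum was lower in both FGF2 libraries, and mitotic members had the widest gap. Of the 36 members called, 19 kept their call and direction under every alternative and left-out library, 3 of 5 in the D cyclin class, 5 of 13 among the replication members and 11 of 18 among the mitotic members.

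Other genes of the pathway were read from 7 lists written from general knowledge, though with earlier results of these data known. Of these 102 genes, 20 rose (19.6%) and 23 fell (22.5%), shares near the 20.7% and 19.9% of all genes tested. Of 8 CDK inhibitor genes, 4 rose (50%) and 1 fell (12.5%). Cdkn2b, which encodes the inhibitor p15 of CDK4 and CDK6, stood at 14.0 and 11.4 CPM with FGF2 and at 1.81 and 1.85 CPM without FGF2, a log2 fold change of 2.78 ± 0.26 (SE, adjusted p = 1.11e-24). Cdkn1c, the gene of the inhibitor p57, stood at 7.38 and 5.29 CPM with FGF2 and at 1.05 and 0.92 CPM without FGF2, a log2 fold change of 2.67 ± 0.37 (SE, adjusted p = 9.14e-12). Both rose more than any member, from 10 to 20 counts a library without FGF2.

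Cdkn1b, the gene of p27, stood at 122.7 and 122.1 CPM with FGF2 and at 95.9 and 106.5 CPM without FGF2, a log2 fold change of 0.27 ± 0.06 (SE, adjusted p = 7.72e-05). Its call was lost without no FGF2 replicate 1, at 0.20 (adjusted p = 0.0637). Cdkn1a, the p53 target p21, stood at 45.1 and 41.2 CPM with FGF2 and at 38.4 and 42.4 CPM without FGF2, and the groups overlapped. Cdkn2d, the gene of p19, fell by 0.63 ± 0.21 (SE, adjusted p = 0.0094) on the log2 scale, a call lost with DESeq2 (adjusted p = 0.106) and without no FGF2 replicate 1 (adjusted p = 0.0527) or replicate 2 (adjusted p = 0.075). Cdkn2a, named after its values were seen as the fourth inhibitor that rose, had 11 counts in each FGF2 library and 5 and 1 counts in the others.

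Of 17 genes of pocket proteins, E2F partners and the MuvB core, 4 rose (23.5%, near the 20.7% of all genes tested) and 1 fell. Rb1, which restrains E2F, stood at 83.2 and 95.5 CPM with FGF2 and at 75.4 and 79.2 CPM without FGF2, a log2 fold change of 0.21 ± 0.07 (SE, adjusted p = 0.010) that was lost with DESeq2 (adjusted p = 0.128), without FGF2 replicate 2 (0.10, adjusted p = 0.38) and without no FGF2 replicate 1 (adjusted p = 0.169). Rbl1, the pocket protein p107 and itself an E2F target, fell by 0.58 ± 0.14 (SE, adjusted p = 0.00028), and lost its call without no FGF2 replicate 2 (adjusted p = 0.0707). Tfdp2, a dimer partner of E2F, rose by 0.42 ± 0.08 (SE, adjusted p = 3.27e-06) on the log2 scale. Mybl2, the gene of B-MYB, had a log2 fold change of -0.53 ± 0.25 (SE, adjusted p = 0.083) at 4.47 to 7.39 CPM.

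Of 10 checkpoint and CDK-activating phosphatase genes, only the DNA damage kinase gene Atm changed, with a rise of 0.37 ± 0.08 (SE, adjusted p = 6.05e-05) on the log2 scale. Of 23 further genes of origin recognition and firing, 2 rose (8.70%) and 6 fell (26.1%), against 20.7% and 19.9% of all genes tested. Their median log2 fold change was -0.20. Gins3, which with the other GINS genes completes the helicase, stood at 2.20 and 1.63 CPM with FGF2 and at 4.57 and 4.34 CPM without FGF2, a log2 fold change of -1.22 ± 0.35 (SE, adjusted p = 0.0023). Orc3, an origin recognition gene, rose by 0.26 ± 0.08 (SE, adjusted p = 0.0047) on the log2 scale. Without FGF2 replicate 2 it was 0.09 (adjusted p = 0.543), without no FGF2 replicate 2 its adjusted p was 0.0627, and with DESeq2 it was 0.115.

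Gmnn, whose product geminin blocks renewed licensing, had 0.55 and 1.22 CPM with FGF2 and 1.71 and 2.40 CPM without FGF2 and narrowly missed the threshold, at -1.19 ± 0.52 (SE, adjusted p = 0.053). It passed with upper quartile scaling (adjusted p = 0.0474), with total count scaling (adjusted p = 0.0497) and without FGF2 replicate 2, where the log2 fold change was -1.88 (adjusted p = 0.0384). Of 23 further mitotic genes, 12 fell (52.2%, against 19.9% of all genes tested) and none rose. Their median log2 fold change was -0.52. Spc25, a kinetochore subunit of the NDC80 complex, fell furthest, from 10.6 and 8.78 CPM without FGF2 to 2.98 and 4.07 CPM with FGF2, a log2 fold change of -1.45 ± 0.25 (SE, adjusted p = 3.09e-08). Mad1l1, a checkpoint gene, had the smallest of these falls, at -0.39 ± 0.13 (SE, adjusted p = 0.0092), and lost its call with DESeq2 (adjusted p = 0.108), without FGF2 replicate 1 (adjusted p = 0.0659) and without no FGF2 replicate 1 (adjusted p = 0.0814).

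**Figure D5:**
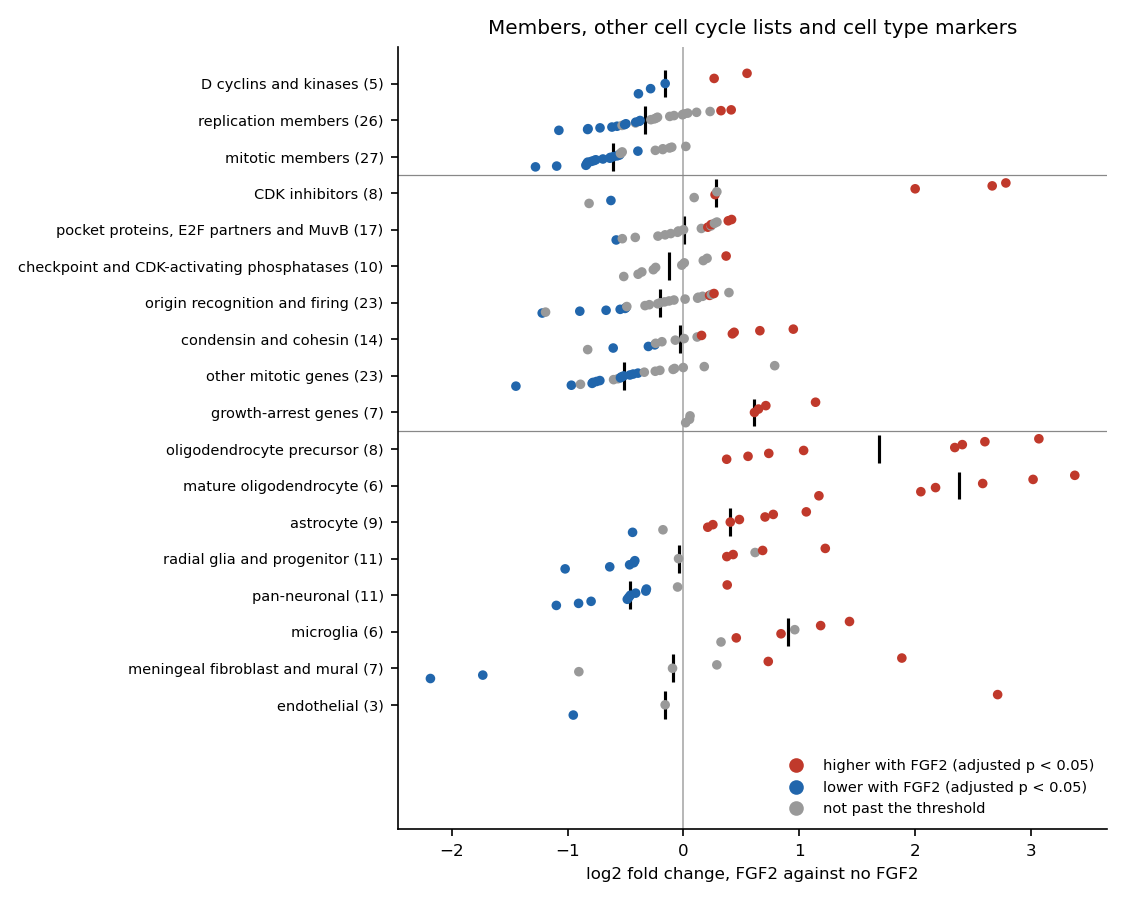
Log2 fold change, FGF2 against no FGF2 (x axis), of every tested gene of the members, the 7 other cell cycle lists and the 8 cell type marker lists, with black bars for medians and the number of genes tested in brackets. Mitotic members (median -0.60) and further mitotic genes (median -0.52) lie to the left. CDK inhibitors (median 0.28), the growth-arrest list (median 0.61, Mdm2 included) and oligodendrocyte genes (medians 1.69 and 2.38) lie to the right.

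Markers of the cell types in the cultures also differed between the groups, in directions that varied by cell type. Over all genes tested, 20.7% rose and 19.9% fell. Of 11 pan-neuronal genes, 9 fell and 1, Nefl, rose. Their summed level was 3814 to 3936 CPM with FGF2 and 5508 to 5527 CPM without FGF2. All 8 markers of oligodendrocyte precursors rose, with a sum of 941.3 to 952.4 CPM with FGF2 and 381.7 to 382.7 CPM without FGF2. Means with and without FGF2 were 257.3 and 42.4 CPM for Gpr17, and 265.8 and 159.4 CPM for Pdgfra. Which of the cells carrying these markers divide was not tested. Of 7 markers of mature oligodendrocytes, which no longer divide, 6 rose and the other, Mog, was under the filter, with a sum of 1297 to 1313 CPM against 244.0 to 245.2 CPM. Of 9 astrocyte markers, 7 rose and 1 fell, with a sum of 12393 to 12505 CPM against 7561 to 7613 CPM.

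Of 11 genes of radial glia and progenitors, 4 rose (36.4%) and 5 fell (45.45%), against 20.7% and 19.9% of all genes tested. Their sum was 2475 CPM in both FGF2 libraries against 1718 to 1776 CPM. The higher sum came from Vim, which astrocytes express too and which stood at 1580 and 1570 CPM with FGF2 and at 664.0 and 683.2 CPM without FGF2. Without Vim the direction turned, and the other 10 genes summed to 895.5 and 905.1 CPM with FGF2 and to 1054 and 1093 CPM without FGF2. The genes that fell were Nes, Hopx, Fabp7, Dlx1 and Dlx2. Markers of other cells were low. Of 10 microglial markers 6 could be tested and 4 rose, with a sum of 39.2 to 43.1 CPM against 25.3 to 25.7 CPM. Of 8 meningeal and mural markers 2, Pdgfrb and Rgs5, rose and 2, Col1a1 and Col1a2, fell, with a sum of 64.6 to 68.3 CPM against 53.8 to 55.1 CPM. The direction of that sum turned without Pdgfrb, with 18.0 to 19.2 CPM over the other 7 markers with FGF2 and 25.1 to 26.2 CPM without FGF2. Of 6 endothelial markers 1 rose and 1 fell with a sum of 7.73 to 9.92 CPM against 4.95 to 8.50 CPM and no count of Cldn5 in any library. The part of these shifts in the levels of the members was not tested.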

How the data were processed

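Paired-end libraries of total RNA from mouse PFC cultures, 4 in all, were analysed. The authors aligned reads to mm10 using HISAT2 2.1.0, filtered on mapping quality with Samtools and obtained a count per gene with HTSeq 0.11.2 (versions per the submitters' processing notes), and deposited the raw counts without normalization. The annotation release and strand setting are not given in the sources used here. A nonzero count was seen for 4 of 693 genes whose exons a same-strand gene covers to at least 98%, and for 164 of 477 covered in this way from the opposite strand, as counting by strand would give. Reads in no feature made up 43.2% to 45.9% of the tallies.

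Of 55421 genes listed, 55240 were matched to GENCODE M21 for names, coordinates (mm10) and exonic lengths, and 5 tallies were left out. The main test was edgeR 4.0.16 in R 4.3.3 (TMM, factors 0.992 to 1.01, filterByExpr, robust quasi-likelihood, Benjamini-Hochberg over 17144 genes), tested on simulated data. RPKM is CPM per kilobase of exon, over the union of the annotated exons of a gene. The SE is the log2 fold change divided by the root of the F statistic. Libraries of a group differed by more than sampling noise (chi-square per degree of freedom 2.29 with FGF2, 1.76 without FGF2). Alternatives were DESeq2 1.42.0, limma-voom 3.58.1, other scalings, filters and thresholds, a replicate block and each library left out. The study used DESeq2.

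Members and lists were chosen with earlier results of these data known. Values per library are given for the D cyclins and their kinases, Cdk1, Cdk2, Mcm2 to Mcm7, Pcna, Mki67, Top2a, Ccnb1 and the highest and lowest member of each class, and outside the members for 6 regulators (Cdkn1a, Cdkn1b, Cdkn1c, Rb1, Gmnn, Mybl2) and the called gene with the highest and lowest fold change of each list with a mean of at least 1 CPM. BLAST 2.17.0 found a copy of at least 300 bases and 95% identity elsewhere for 9 members (Ccnb1, Ccnd3, Cdc6, Hmgb2, Mad2l1, Mcm7, Pcna, Rrm2, Tyms), with at most 6 counts on a copy. The quality filter drops reads that align equally well to gene and copy, which can lower the counts of such genes. Promoter sequences are from RefSeq.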

Additional observations from a re-analysis of the deposited data

How the results depend on the processing

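Among the 58 members and the 19 other genes named by the fixed rule, none that passed the test had the opposite sign under an alternative. Genes named outside that rule, such as Cdkn2a, Stag1 and the cell type markers, were not recomputed. Of 58 members, 36 stayed on their side of the threshold in all alternatives, 17 lost their call and 5 gained one in at least 1 of them. DESeq2 called fewer genes, 2313 higher and 2143 lower against 3541 and 3408 with edgeR, and the cause was not tested. With DESeq2, 17 members fell in place of 32, and the falls numbered 1 in the D cyclin class, 5 among replication members (with 1 rise in place of 2), 11 among mitotic members and 12 among the other cell cycle genes. The median log2 fold change of the members was -0.48 with upper quartile and -0.47 with total count scaling, and that of the mitotic members was -0.63 and -0.62.

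When 1 library was left out, the median was -0.46 to -0.39 for all members, -0.39 to -0.23 for replication members, -0.64 to -0.62 for mitotic members and -0.145 to -0.088 for the other cell cycle genes. The falls in the D cyclin class numbered 1 to 3, those among replication members 7 to 10 and the rises among them 1 to 2. Where 1 library was left out, the lone library of its group was assumed to vary like the other group. At the adjusted p threshold of 0.01, 27 members fell and 4 rose.

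The labels number the libraries 1 and 2 in each group without tying a number to a shared culture, and same-numbered libraries did not deviate together (r = 0.00206 across 17144 genes). With the replicate block, 3476 genes rose and 3338 fell, and 4 members rose and 32 fell. At 23 to 61 counts, as for Tk1, the SE was 0.32 on the log2 scale, which limits what can be told of the lowest members.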

Other observations

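Condensin and cohesin, the ring complexes that compact chromosomes and hold sister chromatids together, were covered by a list of 14 genes, of which 5 rose (35.7%) and 3 fell (21.4%), against 20.7% and 19.9% of all genes tested. Stag2, a subunit of cohesin, which also shapes chromatin in cells that do not divide, stood at 95.2 and 106.1 CPM with FGF2 and at 48.5 and 55.8 CPM without FGF2, a log2 fold change of 0.95 ± 0.08 (SE, adjusted p = 2.29e-34). The other genes that rose, named after their values were seen, were the cohesin genes Stag1 (0.42), Smc3 (0.44) and Rad21 (0.16) and the condensin gene Smc4 (0.66). The genes that fell were the condensin genes Ncaph, Ncapd2 (-0.30) and Ncapd3 (-0.25). Ncaph stood at 9.92 and 7.52 CPM with FGF2 and at 15.1 and 11.4 CPM without FGF2, a log2 fold change of -0.61 ± 0.18 (SE, adjusted p = 0.0034), and its call was lost with DESeq2 (adjusted p = 0.0932), without FGF2 replicate 2 (adjusted p = 0.117) and without no FGF2 replicate 1 (adjusted p = 0.242).

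Of 7 genes listed under growth arrest, 4 rose (57.1%, against 20.7% of all genes tested) and none fell. The list includes the p53 target Mdm2, which does not itself arrest growth. Gas1, first found as a gene of cells arrested in culture, stood at 52.9 and 50.7 CPM with FGF2 and at 22.2 and 24.8 CPM without FGF2, a log2 fold change of 1.14 ± 0.10 (SE, adjusted p = 3.21e-26). Trp53, the gene of p53, stood at 75.8 and 73.0 CPM with FGF2 and at 48.5 and 48.7 CPM without FGF2, a log2 fold change of 0.61 ± 0.08 (SE, adjusted p = 9.96e-13). Mdm2 and Ccng1, targets of p53, stood at 72.4 to 78.6 CPM and 113.0 to 129.5 CPM over all libraries, with groups that overlapped.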
